A study of Homo sapiens with 4 samples.

Results

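Lipid droplet and lipid storage genes were followed in HCT116, an established human colon cancer cell line, kept for 72 h under hypoxia, at 1% oxygen, or under normoxia, at 21%. Cells of both groups had first spent 24 h in medium without serum. The 10 genes chosen were ANGPTL4, HILPDA, PLIN2, PLIN3, LPIN1, FABP5, ACSL1, ACSL3, PNPLA2 and DGAT1. A probe set is a group of short array probes read as 1 value, and every probe set that the platform annotation lists for exactly 1 of these genes was taken. This gave 9 of the 19775 genes so listed, through 16 of the 54675 probe sets on the arrays, while ACSL3 was not analysed here. Each oxygen group held 2 arrays, labelled exp A and exp B. Nothing in the labels says that A and B were separate cultures, so p-values measure only the spread between these arrays, which may be technical.

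Cells store surplus fatty acids as triacylglycerol in lipid droplets, organelles with a neutral lipid core and a coat of perilipin proteins. Fatty acids are carried by binding proteins, activated to acyl-CoA by acyl-CoA synthetases, and joined to glycerol in steps that include the lipin phosphatases and the diacylglycerol acyltransferases. Lipases, with the adipose triglyceride lipase PNPLA2 first among them, take the store down again. Hypoxia-inducible factors (HIF) are known to raise lipid droplet content in many tumour cells, partly through HILPDA, which inhibits PNPLA2.

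HIF binds a short DNA core, ACGTG or GCGTG, and the bases before 3 of the member genes are shown because all of them hold such letters, although ANGPTL4 rose steeply, PLIN3 rose less and PLIN2 was not called. The 250 bases before the RefSeq start (GRCh38.p14) are written 5′ to 3′ along the gene, with every ACGTG or GCGTG, on either strand, in capitals. On the opposite strand these read CACGT and CACGC.
ANGPTL4, chr19:8363905-8364154, plus strand: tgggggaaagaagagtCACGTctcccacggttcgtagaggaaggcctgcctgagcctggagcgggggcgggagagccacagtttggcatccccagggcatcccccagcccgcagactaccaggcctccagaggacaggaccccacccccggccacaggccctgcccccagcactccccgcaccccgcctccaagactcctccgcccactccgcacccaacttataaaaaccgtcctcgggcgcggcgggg
PLIN2, chr9:19127493-19127742, minus strand: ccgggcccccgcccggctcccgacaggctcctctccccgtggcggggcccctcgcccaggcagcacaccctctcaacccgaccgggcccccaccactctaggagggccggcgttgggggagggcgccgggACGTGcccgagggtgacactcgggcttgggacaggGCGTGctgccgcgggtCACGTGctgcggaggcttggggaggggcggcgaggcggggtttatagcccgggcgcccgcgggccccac
PLIN3, chr19:4867668-4867917, minus strand: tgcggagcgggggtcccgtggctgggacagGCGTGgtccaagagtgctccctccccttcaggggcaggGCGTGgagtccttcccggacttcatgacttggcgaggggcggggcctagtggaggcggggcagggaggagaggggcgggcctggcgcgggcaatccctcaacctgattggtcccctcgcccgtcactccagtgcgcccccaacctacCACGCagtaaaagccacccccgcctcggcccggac
ANGPTL4 had 1 match, an ACGTG on the opposite strand beginning 234 bases before the start. PLIN2 had 4 matches, of which 3 were ACGTG and 1 was GCGTG. The PLIN2 matches that begin 69 and 68 bases before the start overlap, as the palindrome in capitals shows, and cover 1 place on both strands. PLIN3 had 3 GCGTG matches, 220, 182 and 35 bases before its start. Over the 35116 promoters of this length in the table, 18.5% held ACGTG, 32.2% held GCGTG, 43.2% held either and 7.76% held 3 or more matches. Among the other members whose promoters were read here, 1 of 3 LPIN1 starts and 2 of 5 ACSL1 starts held a match. The single ACSL3 start did too, and the single PNPLA2 start held 0. A match is a description of letters only.

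The values are MAS5 signals, intensities that the authors deposited on a linear scale, and the number of arrays limits the precision. All 16 probe sets passed the filter on low signal (a mean over the 4 arrays of at least 97.4), so each was tested. Differences are hypoxia minus normoxia of log2(signal + 23.7), a scale that understates changes of low signals, and "called" means a limma adjusted p under 0.05 over the 27304 probe sets tested. Probe sets for Bacillus transcripts, which human RNA lacks, reached at most 45.7 on normoxia A, 121 on normoxia B, 305 on hypoxia A and 226 on hypoxia B, and member signals under these are near background. Of 9 hypoxia marker genes, 8 were called higher. Over all genes tested 14.5% were called higher, the share to set beside this count and the marker counts that follow. All 6 epithelial markers were above the Bacillus level on at least 1 array, and 3 were called higher, among them EPCAM, with the summed signal at 73837 to 87460 in normoxia and 107666 to 115271 in hypoxia. Of 5 adipocyte markers, 4 (ADIPOQ, LEP, PLIN1 and FABP4) stayed under the Bacillus level on every array. Of 9 markers of leukocytes, fibroblasts, endothelium and hepatocytes, 5 did so, and 1, COL1A1, was called higher, with the summed signal of the list at 755 to 1171 in normoxia and 2671 to 3249 in hypoxia. The ratio of the 3′ to the 5′ probe set of ACTB, a sign of RNA integrity, was 1.26 and 1.28 in normoxia and 1.66 and 1.77 in hypoxia, while that of GAPDH spanned 0.918 to 0.996 in normoxia and 0.912 to 0.955 in hypoxia. The part of these values in the results below was not tested, and in bulk RNA fewer cells of a type and less RNA per cell cannot be told apart.

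The clearest changes were steep rises of ANGPTL4, HILPDA and LPIN1, whose 7 probe sets rose on every hypoxia array. PLIN3, ACSL1 and PNPLA2 had smaller rises, whose sign turned when arrays were scaled to hybridization controls. Under that scaling HILPDA 218507_at, LPIN1 212274_at and LPIN1 212276_at kept their sign but lost their calls, with smaller differences and larger standard errors. FABP5 fell, and PLIN2 and DGAT1 were not called. In all, 10 of the 16 probe sets were called higher, against 13.7% of all probe sets tested, and 1 was called lower, against 17.1%. Several of these probe sets read the same gene. Read by the probe set with the highest mean, 6 of the 9 genes were called higher, against 14.5% of all genes tested. By that reading 1 gene was called lower, against 21.7%. Both hypoxia values lay above both normoxia values in 12 of the 16, against 35.4% of all tested, and below them in 2, against 33.2%. The median log2 difference was 0.88 over the 16 and 0.05 over all tested. These counts describe genes chosen with earlier results known.

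**Figure D1:**
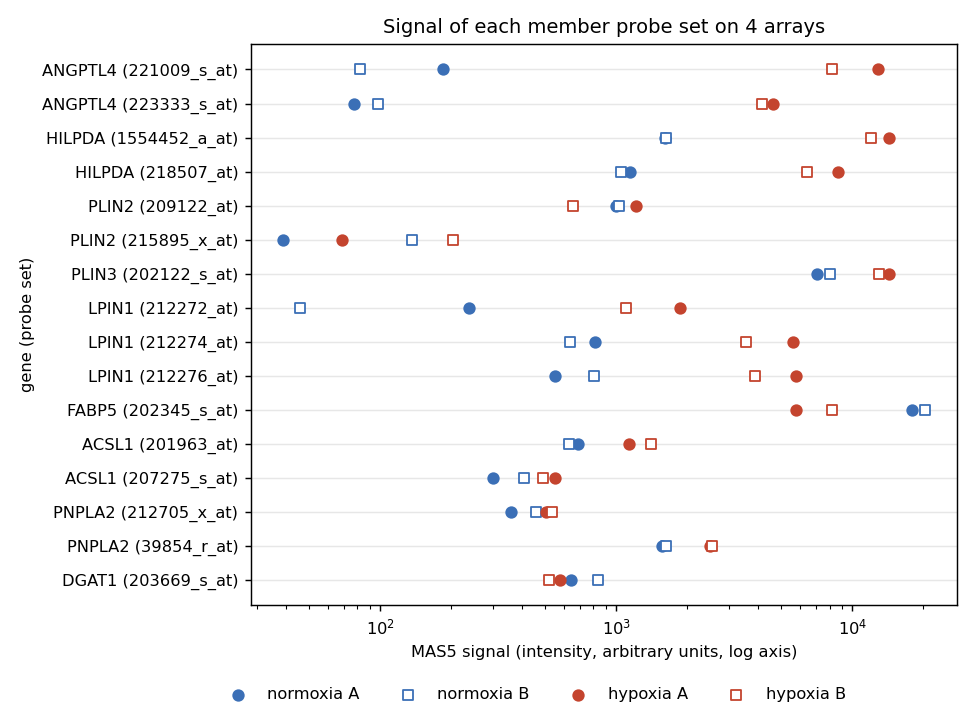
MAS5 signal (log axis) of the 16 member probe sets on the 4 arrays, normoxia in blue and hypoxia in red, exp A as filled circles and exp B as open squares. Red lies far right of blue for ANGPTL4, HILPDA and LPIN1, left of it for FABP5, and the colours interleave for PLIN2.

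ANGPTL4 encodes a secreted protein that inhibits lipoprotein lipase and so limits uptake of fatty acids from lipoproteins. Probe set 221009_s_at read 185 and 82.2 on normoxia A and B, and 12815 and 8219 on hypoxia A and B. Probe set 223333_s_at read 77.6 and 97.5 in normoxia, and 4608 and 4140 in hypoxia. In each probe set every hypoxia value lay far above both normoxia values, and on normoxia B both values lay under the Bacillus level. The log2 difference was 6.11 ± 0.34 (SE, adjusted p = 2.68e-05) for the first and 5.31 ± 0.25 (SE, adjusted p = 1.67e-05) for the second. The mean of the first rose 78.8-fold. The sizes of this fold and of both log2 differences rest on low normoxia signals, which were near background on normoxia B. On normoxia A both lay above the Bacillus level of 45.7.

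HILPDA encodes a small droplet protein that inhibits PNPLA2 and is a well known HIF target. Probe set 1554452_a_at read 1602 and 1617 on normoxia A and B, and 14265 and 11980 on hypoxia A and B. Probe set 218507_at read 1137 and 1049 in normoxia, and 8651 and 6409 in hypoxia. The normoxia arrays nearly coincided, and the hypoxia arrays stood several times higher with no overlap. The first rose by 3.00 ± 0.17 (SE, adjusted p = 2.73e-05), or 8.15-fold of the means, and the second by 2.74 ± 0.20 (SE, adjusted p = 5.55e-05), or 6.89-fold. Only 0.432% and 0.784% of the tested probe sets had a larger difference. Unlike ANGPTL4, HILPDA was well above the Bacillus level on every array.

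PLIN2 and PLIN3 encode perilipins, the coat proteins found on droplets in most cell types. PLIN2 is held to be stable only on droplets, and PLIN3 moves between the cytosol and new droplets. Probe set 209122_at of PLIN2 read 996 and 1026 on normoxia A and B, and 1208 and 653 on hypoxia A and B, so that hypoxia A lay above and hypoxia B below both normoxia arrays. Its log2 difference was -0.18 ± 0.29 (SE, 95% interval -0.85 to 0.48, adjusted p = 0.675). The hypoxia arrays decide its sign. Without hypoxia B it was 0.25, and without hypoxia A it was -0.61. With 1 hypoxia array left, the fit takes its spread from the normoxia arrays alone. Their SD on the log2 scale was 0.03, against 0.61 in hypoxia, so such a fit cannot decide a fall. Probe set 215895_x_at of PLIN2 read 38.7 and 136 in normoxia and 69.1 and 203 in hypoxia, under the Bacillus level on 3 of 4 arrays, and gave 0.54 ± 0.84 (SE, adjusted p = 0.661). It carries the suffix for probe sets that can cross-hybridize.

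PLIN3 had 1 probe set, 202122_s_at, and it was called. It read 7079 and 8005 on normoxia A and B, and 14299 and 12940 on hypoxia A and B. The groups did not overlap, and the log2 difference was 0.85 ± 0.17 (SE, adjusted p = 0.00563), or 1.81-fold of the means. Of all tested probe sets 22.2% had a larger difference. It was also lost when the variance was not modelled with signal level (adjusted p = 0.0809). The PLIN3 difference minus that of PLIN2 was not tested.

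Among the enzymes that build triacylglycerol, LPIN1 rose and DGAT1 was not called. LPIN1 encodes lipin 1, the phosphatase that makes diacylglycerol from phosphatidic acid. Probe set 212274_at read 811 and 634 on normoxia A and B, and 5587 and 3536 on hypoxia A and B. Probe set 212276_at read 549 and 801 in normoxia, and 5771 and 3876 in hypoxia. Probe set 212272_at read 238 and 45.7 in normoxia, the latter under the Bacillus level, and 1854 and 1097 in hypoxia. All 3 were higher on each hypoxia array than on either normoxia array, and hypoxia A was the higher of the hypoxia arrays each time. Their log2 differences were 2.59 ± 0.25 (SE, adjusted p = 1.68e-04), 2.79 ± 0.26 (SE, adjusted p = 1.44e-04) and 3.43 ± 0.57 (SE, adjusted p = 0.00217). The means rose 6.31-fold, 7.14-fold and 10.4-fold. The 212272_at value depends on the normoxia arrays, with 4.39 without normoxia A and 2.47 without normoxia B, and its call was lost without the variance trend (adjusted p = 0.0555). The 95% intervals of all 3 overlap.

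DGAT1 encodes a diacylglycerol acyltransferase, which adds the last fatty acid of triacylglycerol. Its probe set 203669_s_at read 644 and 834 on normoxia A and B, and 574 and 516 on hypoxia A and B. The hypoxia values lay just below the normoxia values, with a log2 difference of -0.41 ± 0.27 (SE, adjusted p = 0.267). The 95% interval of -1.01 to 0.19 spans both a fall and a small rise, so equal levels are not shown.

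FABP5 was the called decrease. It encodes an epidermal-type fatty acid binding protein that carries fatty acids in the cytosol and to nuclear receptors. Probe set 202345_s_at read 17923 and 20368 on normoxia A and B, and 5795 and 8182 on hypoxia A and B. Both hypoxia values were less than the lower normoxia value by a wide margin, and the log2 difference was -1.47 ± 0.21 (SE, adjusted p = 9.66e-04), with a normoxia mean 2.74-fold the hypoxia mean. Of all tested probe sets 10.4% had a lower difference. FABP5 has near-identical processed copies in the genome, and the suffix of this probe set marks probes shared by several transcripts. Signal from copies therefore cannot be told apart from that of FABP5. Both ANGPTL4 probe sets, PLIN3 202122_s_at, ACSL1 207275_s_at and DGAT1 203669_s_at carry the same suffix.

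ACSL1 encodes a long-chain acyl-CoA synthetase that activates fatty acids. Probe set 201963_at read 690 and 627 on normoxia A and B, and 1129 and 1406 on hypoxia A and B. It rose by 0.91 ± 0.23 (SE, adjusted p = 0.0157), or 1.93-fold of the means. Probe set 207275_s_at read 299 and 405 in normoxia, and 552 and 491 in hypoxia, with a log2 difference of 0.55 ± 0.32 (SE, adjusted p = 0.218). Neither probe set had overlapping groups, and the second had the smaller difference. Leaving out normoxia A (0.98, adjusted p = 0.129) or normoxia B (0.85, adjusted p = 0.193) ended the call of the first, as did leaving out the variance trend (adjusted p = 0.0798).

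PNPLA2 encodes adipose triglyceride lipase, which starts the breakdown of stored triacylglycerol. Probe set 39854_r_at read 1554 and 1623 on normoxia A and B, and 2498 and 2538 on hypoxia A and B. Its replicates lay close together and its groups apart, giving 0.66 ± 0.18 (SE, adjusted p = 0.0211), or 1.59-fold of the means. Probe set 212705_x_at read 359 and 456 in normoxia, and 502 and 531 in hypoxia, with a log2 difference of 0.33 ± 0.30 (SE, adjusted p = 0.430). Leaving out normoxia A (0.63, adjusted p = 0.248) or normoxia B (0.69, adjusted p = 0.194) ended the call of 39854_r_at with little change in the difference, as did leaving out the variance trend (adjusted p = 0.114). The suffixes of both mark probe sets that did not meet all design rules or can cross-hybridize.

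**Figure D2:**
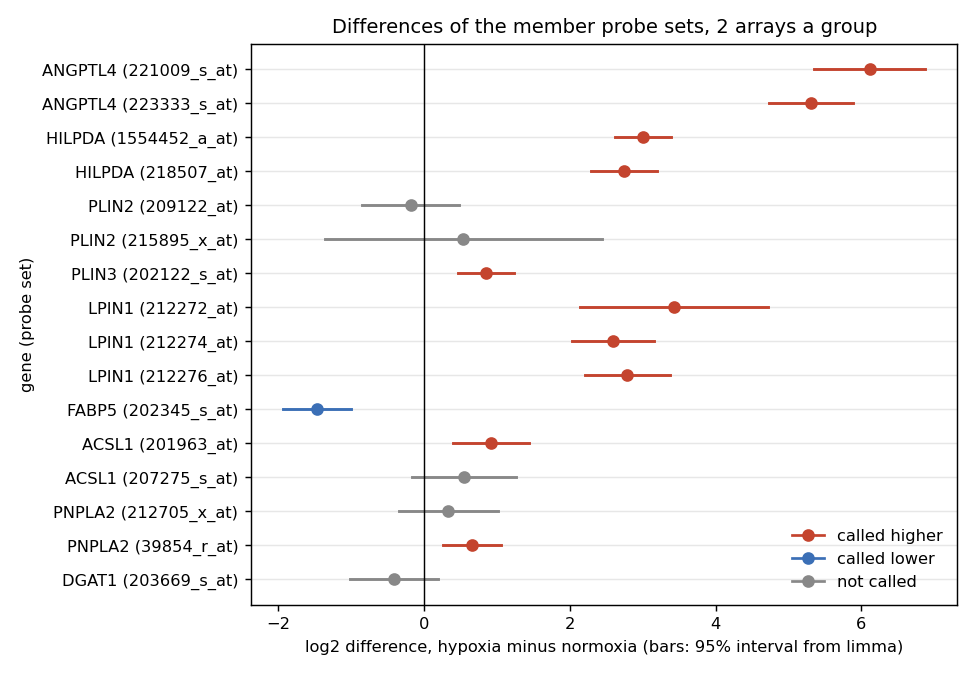
Log2 difference, hypoxia minus normoxia, of each member probe set, with the 95% interval from limma on 2 arrays a group. The 7 probe sets of ANGPTL4, HILPDA and LPIN1 lie between 2.59 and 6.11, FABP5 lies at -1.47, and the intervals of 5 probe sets, including both of PLIN2, cross 0.

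Taking exp A and exp B apart shows how alike the arrays were. ANGPTL4 221009_s_at differed by 5.94 for A and 6.28 for B, and HILPDA 1554452_a_at by 3.14 and 2.87. LPIN1 212274_at differed by 2.75 and 2.44, and FABP5 by -1.62 and -1.31. Among the 16 probe sets, PLIN2 209122_at was the one whose sign differed between the letters, at 0.27 for A and -0.63 for B. In hypoxia the arrays spread more than in normoxia across the whole table, with a median SD of 0.30 against 0.17 on the log2 scale. For PLIN2 209122_at these SDs were 0.61 and 0.03.

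**Figure D3:**
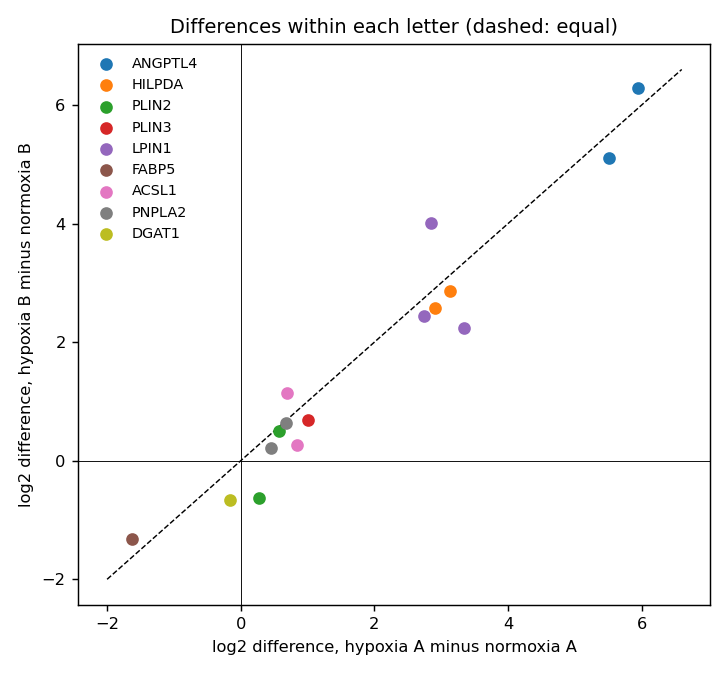
Log2 difference of each member probe set for exp A (horizontal) and for exp B (vertical), with 1 colour a gene and a dashed line where they are equal. Most points follow the line from FABP5 at the lower left to ANGPTL4 at the upper right, and 1 PLIN2 point lies right of 0 and below 0.

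The direction of the smaller changes depends on how arrays are scaled. The deposited values share 1 trimmed mean of about 500 per array, so a shift common to most genes is not seen. The arrays were then scaled instead to the bacterial hybridization controls, which are added in fixed amount after labelling. The median of all probe sets moved to -1.30. Each sample began from 6 µg of RNA and the controls came after labelling, so this scaling cannot show RNA per cell. What moved the median was not tested. Over all tested probe sets 3738 were called higher and 4668 lower under the deposited scaling, against 110 and 10150 under control scaling. PLIN3 then read -0.60, ACSL1 201963_at -0.51 and PNPLA2 39854_r_at -0.78, none of them called. Both ANGPTL4 probe sets, HILPDA 1554452_a_at and LPIN1 212272_at were called higher. HILPDA 218507_at (1.30), LPIN1 212274_at (1.16) and LPIN1 212276_at (1.36) lost their calls. Control scaling also widened the standard errors of the latter, from 0.20 to 0.68, 0.25 to 0.71 and 0.26 to 0.71 in that order. FABP5 was called lower, and so was DGAT1 (-1.82, adjusted p = 0.0296). Relative to the median of all probe sets, PLIN3 lay 0.80 above under the deposited scaling and 0.69 above under the control scaling, and FABP5 -1.52 and -1.63 from it. ACSL1 201963_at lay 0.86 and 0.79 above that median, and PNPLA2 39854_r_at 0.61 and 0.51 above it. HILPDA 218507_at lay 2.69 and 2.60 above it, LPIN1 212274_at 2.54 and 2.45, and LPIN1 212276_at 2.74 and 2.65.

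The rest of the pathway was read from 6 lists holding 103 genes, each gene by its tested probe set with the highest mean signal. Of these, 96 had a probe set and 72 were tested. Called higher were 10 of the 72, against 14.5% of all genes tested, and called lower were 24, against 21.7%. Directions below are those of the deposited scaling, since with control scaling 1 gene was called higher and 36 lower. Of the genes named below, GPAT2 (adjusted p = 0.0515), DDHD2 (0.059), LDAH (0.0665), ECI1 (0.0689), ACSL4 (0.0728), RAB18 (0.0802), LIPA (0.110) and HSD17B11 (0.157) lost their calls when limma was fitted without the variance trend.

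Fatty acid oxidation breaks fatty acids down for energy. Of 21 tested genes 10 fell by limma, against 21.7% of all genes tested. By the same test 0 rose (also 0 at an unadjusted p under 0.05), against 14.5%. The other 11 were not called, and the median log2 difference was -0.89 against -0.03 over all genes. These counts read 1 probe set a gene, and some genes had a further tested probe set of opposite sign. That of MLYCD gave 2.48 against -0.99, and that of ACAA2 gave -0.72 against 0.40. HADH and HADHA had 1 each, at 0.04 and -0.06. All further tested probe sets of CPT1A, CPT2, ACAA1, ACOX3 and ETFDH were negative, as were the probe sets read for these genes. ACOX3, a peroxisomal oxidase, fell from 397 ± 41.2 to 20.6 ± 14.6 (SD, n = 2 arrays) with a log2 difference of -3.29 ± 0.68 SE and a limma adjusted p = 0.00637, to a level near background. DECR1, which handles unsaturated fatty acids, fell from 1776 ± 77.1 to 414 ± 63.9 (-2.05 ± 0.23 SE on the log2 scale). CPT1A, which commits fatty acids to mitochondrial oxidation, fell from 2194 ± 93.7 to 572 ± 252 (-1.96 ± 0.29 SE on the log2 scale, limma adjusted p = 0.00128), with its other 3 probe sets at -1.22 to -0.04. The isomerase gene ECI1 had a log2 difference of -1.49 ± 0.28 SE. Leaving out normoxia A left 6 that fell, leaving out normoxia B left 7, and leaving out either hypoxia array gave 13. The ACOX3 call was lost when either normoxia array was left out. Without hypoxia B, 1 gene was called higher. Without the variance trend 5 fell.

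The lipid-sensing receptors of the PPAR family, whose known targets include ANGPTL4 and PLIN2, were called higher. PPARA rose from 313 ± 95.6 to 1469 ± 365 (2.16 ± 0.30 SE on the log2 scale, limma adjusted p = 9.74e-04). PPARG rose from 475 ± 44.5 to 2137 ± 82.9 (2.12 ± 0.21 SE on the log2 scale, limma adjusted p = 2.09e-04), and PPARD from 1377 ± 86.8 to 5683 ± 232 (2.03 ± 0.17 SE on the log2 scale, limma adjusted p = 1.06e-04). Thus 3 of 6 tested genes rose by limma, against 14.5% of all genes tested. By the same test 0 fell (also 0 at an unadjusted p under 0.05), against 21.7%, and RXRA, RXRB and PPARGC1B were not called. Under control scaling these 3 rises were 0.76, 0.69 and 0.58 and not called. Without hypoxia A, 1 gene of the list was called lower.

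Among synthesis genes, limma called 2 of 11 tested higher and 4 lower, and left 5 uncalled, with a median of 0.05. All genes tested had 14.5% called higher and 21.7% called lower, and the 2 that rose are a share near that background. AGPAT4, an acyltransferase of the step before lipin, rose from 165 ± 71.0 to 1990 ± 339 (3.46 ± 0.33 SE on the log2 scale), and its further probe set gave 0.96. GPAT3, an acyltransferase of the first step, rose from 290 ± 28.6 to 1295 ± 24.5 (2.08 ± 0.26 SE on the log2 scale). GPAT2 fell from 1098 ± 34.9 to 75.2 ± 91.0 (-3.90 ± 0.65 SE on the log2 scale, limma adjusted p = 0.00224), a hypoxia level near background, so that the size of the fall is uncertain. Leaving out hypoxia A gave -5.02, and leaving out hypoxia B gave -2.78. AGPAT1 fell from 1692 ± 83.0 to 495 ± 53.9 (-1.73 ± 0.22 SE on the log2 scale). DGAT2, the other diacylglycerol acyltransferase gene, was not called. With either hypoxia array left out 3 rose.

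Of 8 lipolysis genes tested, 2 were called higher, against 14.5% of all genes tested, and 2 lower, against 21.7%. The other 4 were not called, and the median was 0.29. MGLL, which cleaves monoacylglycerol at the end of lipolysis, rose from 216 ± 54.5 to 1461 ± 226 (2.64 ± 0.29 SE on the log2 scale, limma adjusted p = 3.16e-04), and its further probe set gave 2.67. The phospholipase gene DDHD2 rose by 1.09 ± 0.23 SE, or -0.33 under control scaling. LDAH, a droplet-associated hydrolase gene, and LIPA, the lysosomal acid lipase gene, had log2 differences of -1.45 ± 0.30 and -0.70 ± 0.17 SE. ABHD5, the coactivator of PNPLA2, was not called. The calls of DDHD2 and LIPA were lost when either normoxia array was left out. The LDAH call was lost without normoxia A. Leaving out normoxia A left 0 lower and 1 higher, leaving out normoxia B left 1 each way, and leaving out hypoxia B gave 3 higher.

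Genes of fatty acid uptake, binding and activation gave 3 higher, 5 lower and 5 not called of 13 tested, with a median of -0.15. The shares over all genes tested were 14.5% higher and 21.7% lower. Among synthetases related to ACSL1, ACSL4 rose from 757 ± 322 to 2739 ± 1107 (1.83 ± 0.34 SE on the log2 scale), while ACSL5, abundant in intestinal epithelium, fell from 11249 ± 210.3 to 2658 ± 373 (-2.08 ± 0.17 SE on the log2 scale, limma adjusted p = 1.03e-04). The endothelial lipase gene LIPG rose by 2.55 ± 0.39 SE, and FABP6, the ileal bile acid binding protein gene, had -2.79 ± 0.52 SE, with both hypoxia signals under the Bacillus level. The FABP6 call was lost when either normoxia array was left out. FABP4 and CD36 had means under the filter and were not tested. With either normoxia array left out 1 gene was called lower, and 2 were called higher without normoxia A.

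Coat and assembly genes had 0 of 13 called higher, against 14.5% of all genes tested, and 3 lower, against 21.7%. The other 10 were not called, and the median was -0.19. At an unadjusted p under 0.05, 2 genes, FITM1 and LDAF1, had positive differences that limma did not call after adjustment (adjusted p = 0.0662 and 0.0938), and 1 gene of the list was called higher under quantile normalization, scaling to the 75th percentile, a pseudocount of 100, the replicate block, or without hypoxia A. TMT1A, a droplet-associated methyltransferase gene, fell from 429 ± 162 to 19.2 ± 2.47 (-3.35 ± 0.68 SE on the log2 scale), a hypoxia level under the Bacillus level on both arrays, and its further probe set gave 0.03. RAB18, a GTPase on droplets, had -1.46 ± 0.28 SE with its other 4 probe sets at -1.31 to 1.64, and the dehydrogenase gene HSD17B11 had -0.65 ± 0.20 SE. The TMT1A and HSD17B11 calls were lost when either normoxia array was left out. PLIN5 and CIDEC were not called, and PLIN1, PLIN4, CIDEA and CIDEB were under the filter. With either normoxia array left out 1 gene was called lower, and without hypoxia A 5 were.

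**Figure D4:**
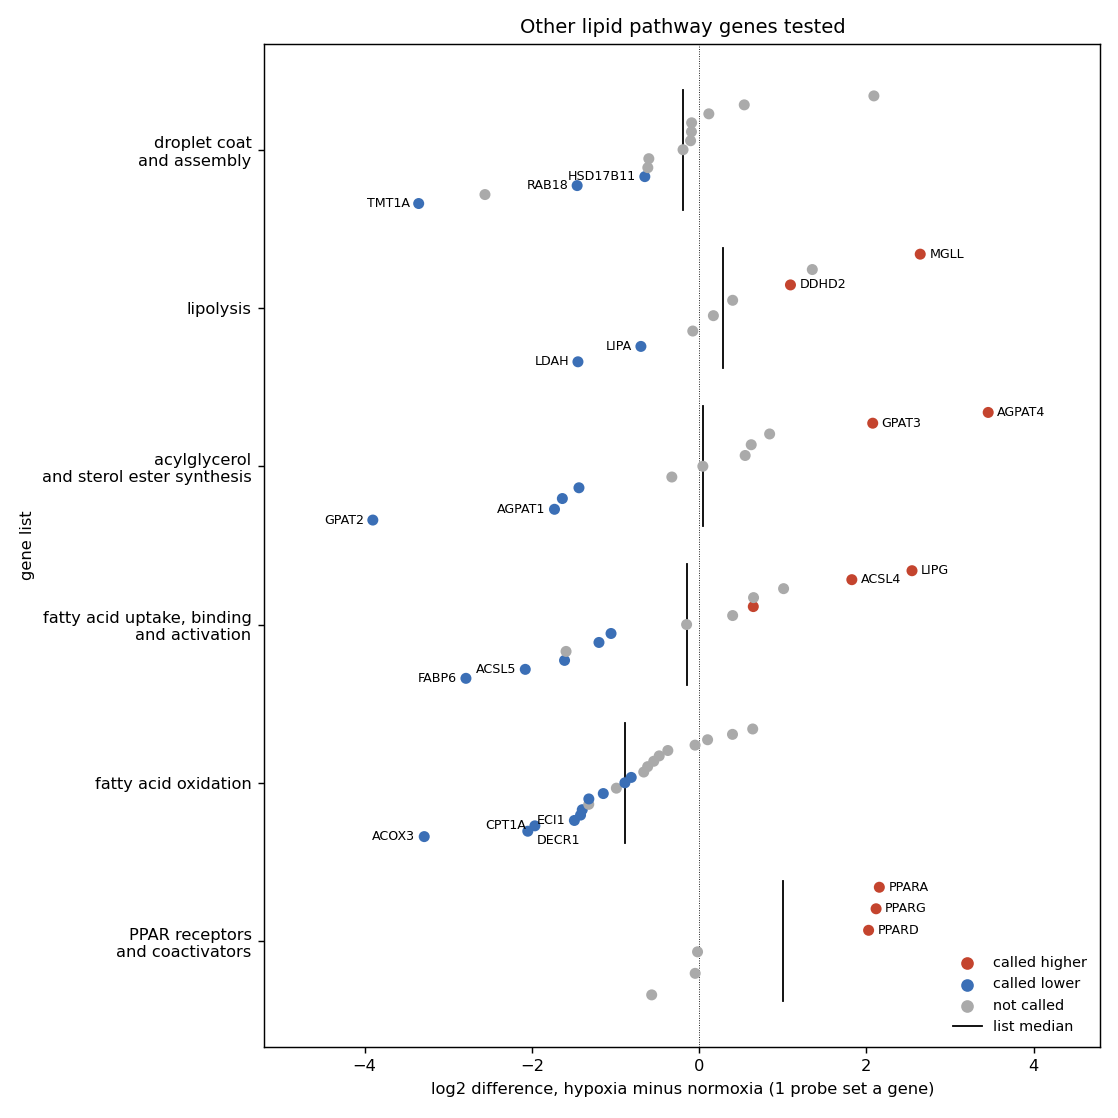
Log2 difference, hypoxia minus normoxia, of 72 tested genes of 6 lipid lists, with 1 point a gene, red for called higher, blue for called lower, grey for not called, and a vertical bar at each list's median. The oxidation list lies mostly left of 0 with its median at -0.89, while PPARA, PPARG and PPARD lie at 2.03 to 2.16.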

How the data were processed

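HCT116 RNA (6 µg a sample) was read on 4 arrays, 2 per oxygen group. The authors deposited probe set intensities from MAS5 (named in the submitters' processing notes, without a version). Detection calls were not used here. Groups came from the labels.

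Of 54675 probe sets, 62 were controls. The 27304 others with a mean of at least 97.4, the median of all means, were tested. Log2(signal + 23.7) was fitted with limma 3.58.1 in R 4.3.3 (lmFit, then eBayes with trend), and two-sided p-values were adjusted by Benjamini-Hochberg over all tested; the pseudocount 23.7 was the lower quartile of the table. With an array left out, the lone array of a group was assumed to vary like the other group. Figures were drawn in Python 3.11.15 with matplotlib 3.10.9. The fit was tested on simulated data.

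Members were matched by annotation symbol, and list genes by symbols updated through a RefSeq table. Of each list up to 4 called genes with the largest absolute log2 difference are named, and any further gene was picked with its values known. Members and lists were chosen with earlier results of these data known. Promoters came from RefSeq (GRCh38.p14), with 7 of 10 members used. Alternatives in pseudocount, filter, scaling, variance model, block and arrays are given in the closing section.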

Additional observations from a re-analysis of the deposited data

How the results depend on the processing

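Each difference was recomputed under other pseudocounts, filters, scalings, variance models and units, with A and B as a block, and without each array. Over the 16 member probe sets 193 recomputed differences kept direction and call, 11 lost the call, 2 gained one and 9 changed sign. For the other named genes, a check added after seeing the data, 275 kept both, 29 lost the call and 1 changed sign (DDHD2, -0.33, control scaling). Under control scaling the signs turned for PLIN3 (-0.60), ACSL1 201963_at (-0.51) and 207275_s_at (-0.83), PNPLA2 39854_r_at (-0.78) and 212705_x_at (-1.05) and PLIN2 215895_x_at (-0.56). That scaling moved the median of all probe sets from 0.05 to -1.30, and relative to this median PLIN3 read 0.80 and 0.69, ACSL1 201963_at 0.86 and 0.79, and PNPLA2 39854_r_at 0.61 and 0.51 under the deposited and the control scaling. It left 4 member probe sets called higher and 2 lower, and 1 other pathway gene higher and 36 lower. PLIN2 209122_at ranged from -0.61 to 0.25 and 215895_x_at from -0.14 to 1.22 when 1 array was left out.

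Over all tested probe sets, 3738 calls higher and 4668 lower became 1704 and 2120 without the variance trend, 2279 and 2043 without normoxia A, 2267 and 2214 without normoxia B, and 110 and 10150 under control scaling.

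With 1 probe set a gene, which leaves 9 members, 6 were called higher. Without the variance trend 6 member probe sets were called higher, and 12 other genes lower. Leaving out 1 array gave 1 to 2 member probe sets lower and 12 to 32 other genes lower. The letters gave no firm pairing (correlation of deviations 0.06), and a replicate block gave 10 member probe sets higher, 1 lower, and 13 and 29 other genes. A call lost without a normoxia array need not rest on that array, since the fit then takes its spread from the hypoxia arrays. Where signals are low or near background, as for ANGPTL4 in normoxia (near background on normoxia B), fold sizes are uncertain.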
